A study of Homo sapiens with 6 samples.

Results

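Arrays of 2 groups were compared directly with each other, the shGATA3-labelled ones and the shTCF1-labelled ones, and the control arrays of the series were left out. Of the 6 arrays in all, 4 were used, 2 for each hairpin, and they were chosen by their titles. All 4 held RNA from RPMI-8402, an established human leukaemia line of the T-cell acute lymphoblastic kind. The cells had been transduced with a lentivirus that carries EGFP and a short hairpin RNA (shRNA) directed at GATA3 in one group and at TCF7, the gene of TCF1, in the other. EGFP-positive cells were sorted 48 h later in both groups, and neither group received a further agent. The hairpin against GATA3 was a single sequence and nothing in the labels names more than one against TCF7, so that each group stands for 1 hairpin in 1 cell line.

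GATA3 is a zinc finger factor that binds GATA words in DNA and is needed for T-cell commitment. TCF1 is an HMG-box factor of the TCF/LEF family that is induced by Notch in the thymus and can act with beta-catenin downstream of Wnt. T cells and natural killer (NK) cells share an early thymic progenitor, and the study asked how the loss of each factor affects the choice between them. The question here is which genes, pathways and families separate the 2 hairpins.

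The 30237 probes tested were those whose signal was flagged well above background by the scanner software on both arrays of one group or the other, and 18190 of them named 14241 genes. Values are normalized log2 intensities, and a difference is the mean of the shGATA3-labelled arrays minus the mean of the shTCF1-labelled ones on that log2 scale. A call means an adjusted p below 0.05 in limma. Across probes, which are not independent replicates, the arrays of a group correlated at 0.995 and 0.994 and arrays of different groups at 0.985 to 0.986. All 4 arrays lay in 1 row of 1 slide and were scanned together, with shTCF1 in columns 1 and 2 and shGATA3 in columns 3 and 4, so that hairpin and place in the row cannot be told apart. With 2 arrays a group an exact permutation test of 1 gene cannot go below a two-sided p of 0.333, and the calls depend on the variance that limma shares between probes. The study describes its array replicates as independent experiments, and the labels do not say what was repeated. The p values measure the spread between these samples.

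The targeted genes were examined first. TCF7 was at 14.05 and 14.06 on the shGATA3-labelled arrays and at 12.38 and 12.46 on the shTCF1-labelled ones. Both shTCF1-labelled arrays were low and the groups did not overlap. Groups that do not overlap were common, at 53.1% of all tested probes. The difference was 1.64 (SE 0.12), a 3.11-fold higher level under the label shGATA3 (adjusted p 0.00168 in limma), and the second probe of TCF7 differed by 2.01 (adjusted p 0.00148). GATA3 was at 9.25 and 9.35 on the shGATA3-labelled arrays and at 9.56 and 9.69 on the shTCF1-labelled ones. The groups did not overlap, but the difference of -0.32 (SE 0.13) was not called (adjusted p 0.204 in limma), and over all alternatives run it lay between -0.14 and -0.39 with an adjusted p no lower than 0.0959. In a normalization over all 6 arrays GATA3 was at 9.54 and 9.56 on the control arrays and at 9.46 and 9.55 on the shGATA3-labelled ones. GATA3 was therefore not seen to be lost, and each direction below is that of a label.

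**Figure D1:**
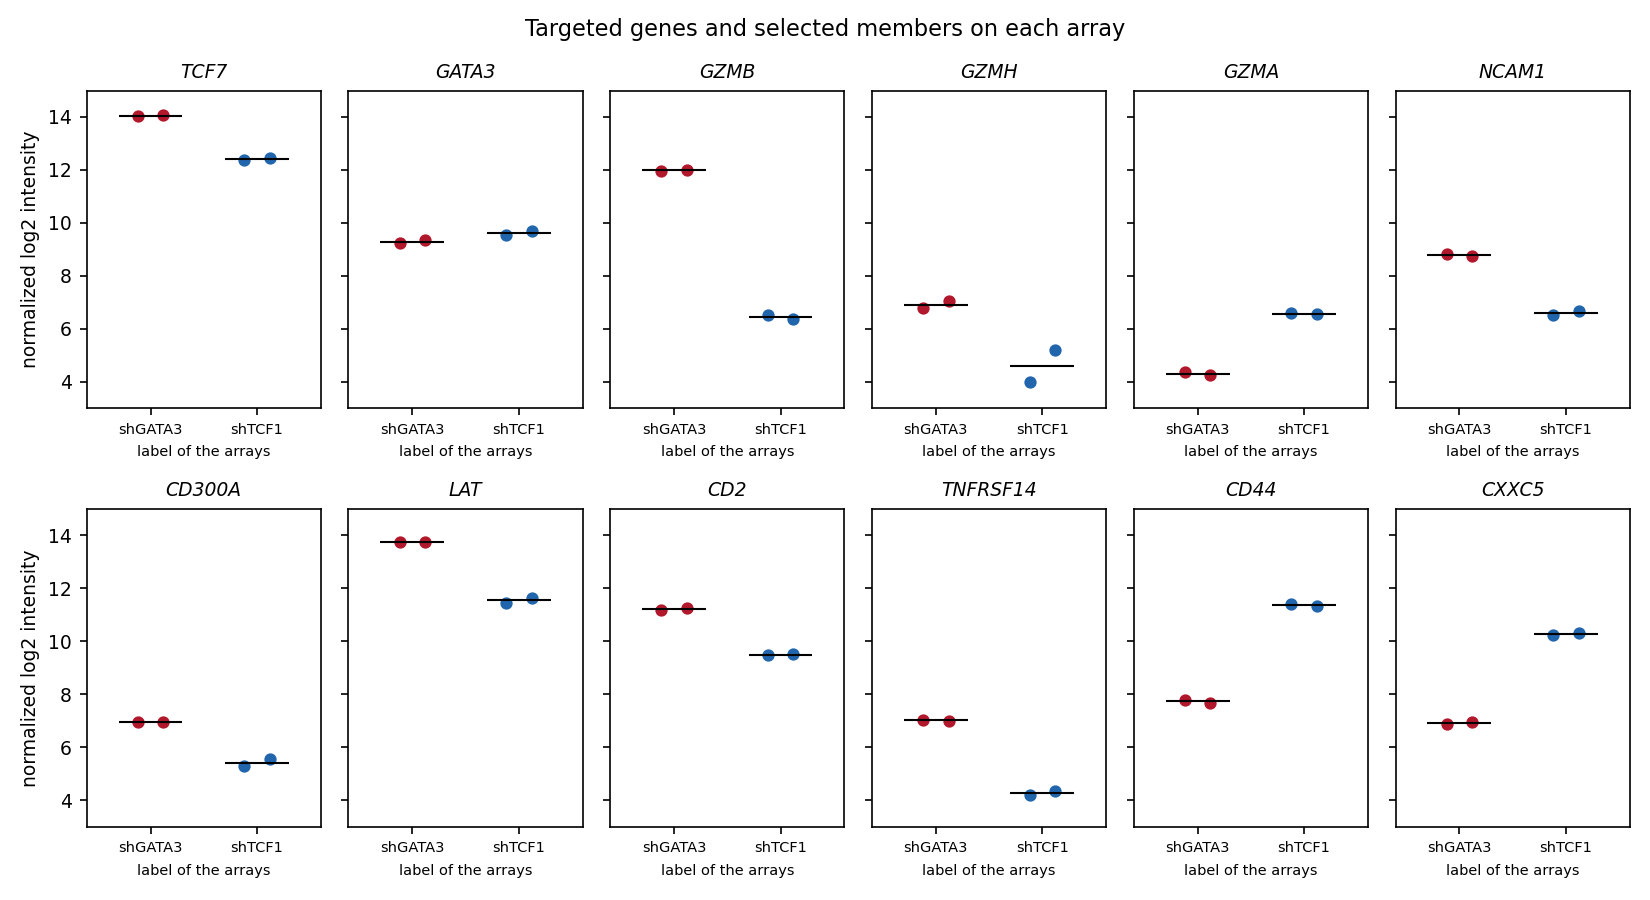
Normalized log2 intensity (y axis) of 12 genes on each array, with a point for each array and a line at the mean of the 2 arrays of a group; red, arrays labelled shGATA3, blue, arrays labelled shTCF1. TCF7 differs by 1.64, while GATA3 differs by -0.32 and was not called.

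The cells carried T-lineage transcripts under both hairpins. Of 12 T-lineage markers, 11 were well above background on all 4 arrays, with a mean log2 level over the list of 11.40 and 11.50 on the shGATA3-labelled arrays and of 11.18 and 11.23 on the shTCF1-labelled ones. The exception was CD1E, a lipid-presenting molecule of cortical thymocytes, which was well above background on none. Of 6 NK markers only NCR1 and NKG7 were measured, and KLRD1, KLRF1, PRF1 (perforin) and GNLY (granulysin) were well above background on none of the 4 arrays. The mean log2 level of the NK markers was 5.19 and 5.01 on the shGATA3-labelled arrays and 5.33 and 4.82 on the shTCF1-labelled ones, so the groups overlapped. The B-lineage marker MS4A1, the myeloid markers CD14 and MPO, the erythroid marker ALAS2 and the stromal markers COL1A1 and VIM were measurable and not called, and PAX5, CSF1R, HBB, COL1A2 and DCN did not reach the filter. In RNA from a mixed population, fewer cells with a transcript and less of it per cell cannot be told apart.

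The sequences just before the start of 3 of the genes with the largest differences are shown because the factors targeted by the hairpins bind short words in DNA. They are the 250 bases before the start in the RefSeq annotation of GRCh38.p14, 5′ to 3′ on the strand of the gene, with capitals for a GATA word (AGATAA or AGATAG or TGATAA or TGATAG) or a TCF/LEF word (CTTTGAA or CTTTGAT or CTTTGTA or CTTTGTT) on either strand. GZMB is at chr14:24634191-24634440 on the minus strand, GADD45G at chr9:89604762-89605011 on the plus strand, and the first of 7 listed starts of CXXC5 at chr5:139647049-139647298 on the plus strand.
GZMB: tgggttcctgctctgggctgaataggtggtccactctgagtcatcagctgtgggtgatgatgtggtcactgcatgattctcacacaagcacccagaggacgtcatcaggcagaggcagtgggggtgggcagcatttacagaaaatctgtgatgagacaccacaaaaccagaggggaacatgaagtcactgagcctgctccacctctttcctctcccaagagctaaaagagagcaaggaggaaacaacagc
GADD45G: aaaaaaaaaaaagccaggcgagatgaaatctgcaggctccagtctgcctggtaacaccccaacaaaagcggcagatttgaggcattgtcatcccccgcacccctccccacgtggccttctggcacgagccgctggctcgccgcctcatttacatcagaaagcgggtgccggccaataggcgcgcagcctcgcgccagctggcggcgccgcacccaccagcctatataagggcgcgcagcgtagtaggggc
CXXC5: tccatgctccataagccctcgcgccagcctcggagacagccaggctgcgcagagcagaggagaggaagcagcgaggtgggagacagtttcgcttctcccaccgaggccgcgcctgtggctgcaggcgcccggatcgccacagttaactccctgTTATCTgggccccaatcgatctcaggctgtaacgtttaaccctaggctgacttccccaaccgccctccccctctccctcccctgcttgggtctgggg
The windows of GZMB and GADD45G held none of these letters, and that of CXXC5 held 1 GATA word on the opposite strand that begins 97 bases before the start. Of the 6 other listed starts of CXXC5 the second had a GATA word that begins 179 bases before it and 5 had neither word. TCF7 has 2 listed starts, of which the second had a TCF/LEF word on the opposite strand 50 bases before it and the first had neither. Among all 35116 windows of this length that RefSeq gives, 22.3% held a GATA word and 12% a TCF/LEF word. For the tested genes the shares were 15.2% and 8.70% of 16084 windows. Genes called higher on the shGATA3-labelled arrays had a GATA word in 16.1% and a TCF/LEF word in 9.93% of 534 windows, and genes called higher on the shTCF1-labelled ones had them in 18.5% and 9.90% of 384 windows. The 2 directions thus held both words in similar shares, and a match is a run of letters and not a binding site.

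Limma called 1559 of the 30237 probes (5.16%), 922 higher and 637 lower on the shGATA3-labelled arrays, with a median absolute difference of 0.92 among them. Without multiple testing correction 6595 probes had a p below 0.05. Over genes, each represented by its brightest tested probe, 747 of 14241 were called (5.25%). Of these, 438 were higher on the shGATA3-labelled arrays (3.08% of the genes tested) and 309 on the shTCF1-labelled ones (2.17%), and 328 differed by more than 2-fold. The called share fell with brightness, from 7.53% in the dimmest of 4 equal groups of genes to 3.09% in the brightest. Leaving out shGATA3 replicate 1 gave 501 called genes and leaving out shGATA3 replicate 2 gave 389, while 576 and 526 were called with shTCF1 replicate 1 or 2 left out. The median difference over all genes was 0.0050.

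**Figure D2:**
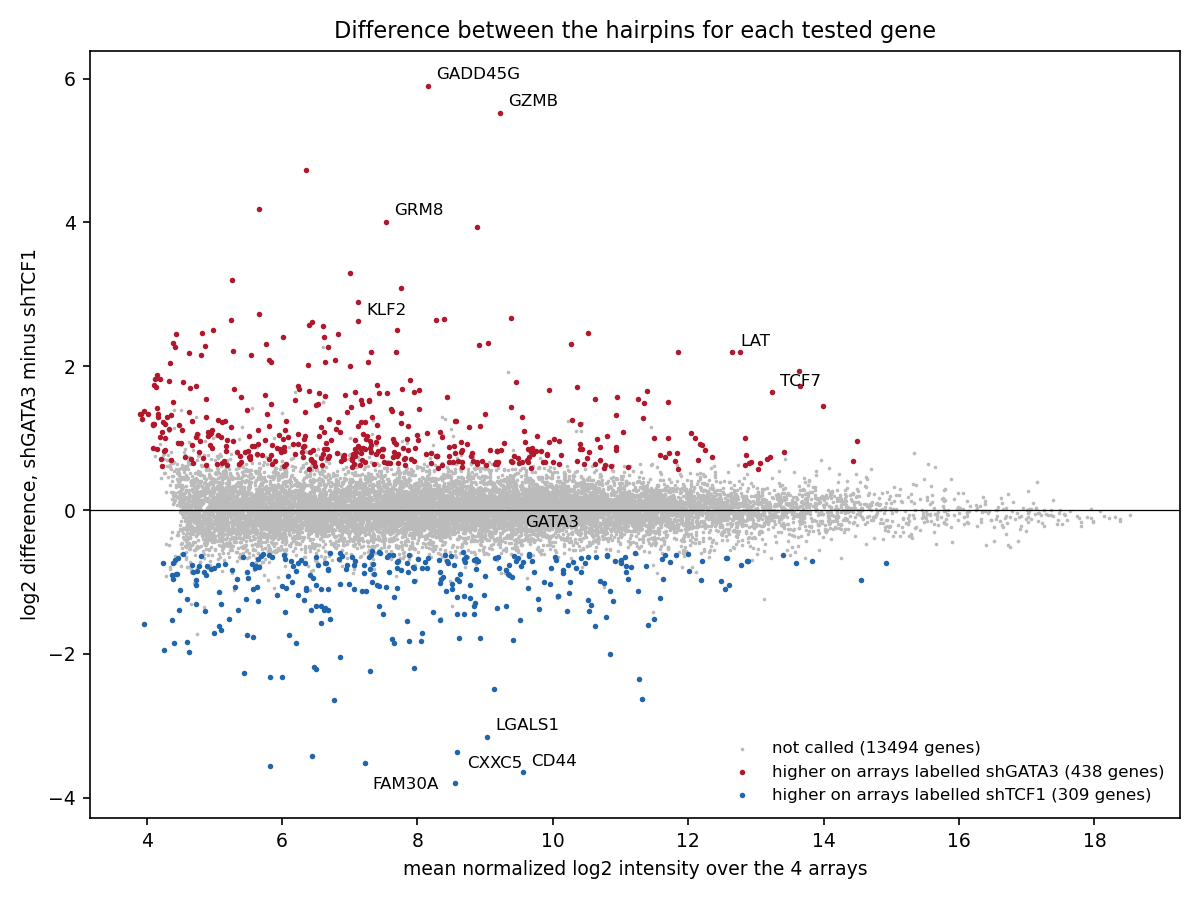
Log2 difference between the hairpins (y axis, shGATA3 minus shTCF1) against the mean normalized log2 intensity over the 4 arrays (x axis), with a point for each of the 14241 tested genes. Red and blue points were called by limma, 438 and 309 genes, and GADD45G and GZMB lie above all other genes.

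Among genes well above background on all 4 arrays with groups that did not overlap, the largest difference was that of GADD45G, a growth arrest and DNA damage inducible gene whose product binds p38 pathway kinases and cyclin-dependent kinases. It was at 11.05 and 11.15 on the shGATA3-labelled arrays and at 4.98 and 5.42 on the shTCF1-labelled ones, a 59.8-fold difference (adjusted p 0.000138 in limma). The second probe of GADD45G, not well above background on either shTCF1-labelled array, was at least 10.98-fold higher. That probe passed the filter through the shGATA3-labelled arrays alone and is no independent support. The relatives of GADD45G did not follow. GADD45A differed by 0.53 and GADD45B by -0.43, and neither was called (adjusted p 0.0587 and 0.144 in limma). The differences within the family were not tested against each other.

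GZMB, the serine protease granzyme B of cytotoxic granules, was at 11.94 and 12.02 on the shGATA3-labelled arrays and at 6.52 and 6.39 on the shTCF1-labelled ones. Both arrays of the first group were high and the fold was 46.1 (adjusted p 5.43e-05 in limma). GRM8, a metabotropic glutamate receptor, was at 9.58 and 9.5 against 5.85 and 5.21, which is 16.1-fold, although its second probe differed by 1.47 and was not called (adjusted p 0.0561 in limma). CFTR, a chloride channel, was at 10.85 and 10.84 against 6.79 and 7.01, a 15.4-fold difference (adjusted p 0.000171).

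Behind these came LINC00892, CAMK1D, a calcium/calmodulin-dependent kinase, LPAR6, a lysophosphatidic acid receptor, SPON1, RCBTB2, PDE9A, a cyclic GMP phosphodiesterase, KLF2, the factor that sustains S1PR1 in resting T cells, and DIP2C. These 8 genes were 6.15-fold to 9.84-fold higher on the shGATA3-labelled arrays. The rule that named them required groups that do not overlap.

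In the other direction FAM30A, a long noncoding transcript known from CD34-positive cells and some leukaemias, was at 6.69 and 6.63 on the shGATA3-labelled arrays and at 10.39 and 10.52 on the shTCF1-labelled ones, which is 13.9-fold (adjusted p 0.000171 in limma). CD44, the hyaluronan receptor, was at 7.78 and 7.69 against 11.41 and 11.35, which is 12.5-fold (adjusted p 0.000171). CXXC5, a CXXC zinc finger protein that binds Dishevelled and dampens Wnt signalling, was at 6.87 and 6.94 against 10.22 and 10.30, which is 10.3-fold (adjusted p 0.000209). The groups lay far apart for all 3 genes, with replicate arrays within 0.13 of each other.

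IRAG1 (11.5-fold), RAB7B (10.72-fold), the galectin LGALS1 (8.87-fold), HOXB5 (6.22-fold), VPREB1 of the surrogate light chain (6.18-fold), the bHLH factor LYL1 (5.63-fold), TAC3 (5.11-fold), RSPH1 (4.99-fold) and AMPD3 (4.70-fold) completed the 12 largest differences toward the label shTCF1. All 24 genes named by size stayed called whichever of the 4 arrays was omitted, and with 4 alternative scalings of the scanner values. Their sizes depended on the background correction. With normexp, which adds an offset of 50 to each signal, 15 of the 24 folds shrank by more than 1.5 times, among them GADD45G to 23.5-fold, GZMB to 26.9-fold, GRM8 to 7.46-fold, CFTR to 10.2-fold, FAM30A to 8.80-fold, IRAG1 to 5.58-fold and RAB7B to 4.20-fold. Under the other alternatives run none of the 24 folds moved by as much. The calls did not all hold under every alternative, and without a filter on dim probes only 19 genes in all were called. Over all alternatives the adjusted p in limma reached 0.0954 for HOXB5, 0.0697 for LINC00892 and 0.0671 for LPAR6.

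**Figure D3:**
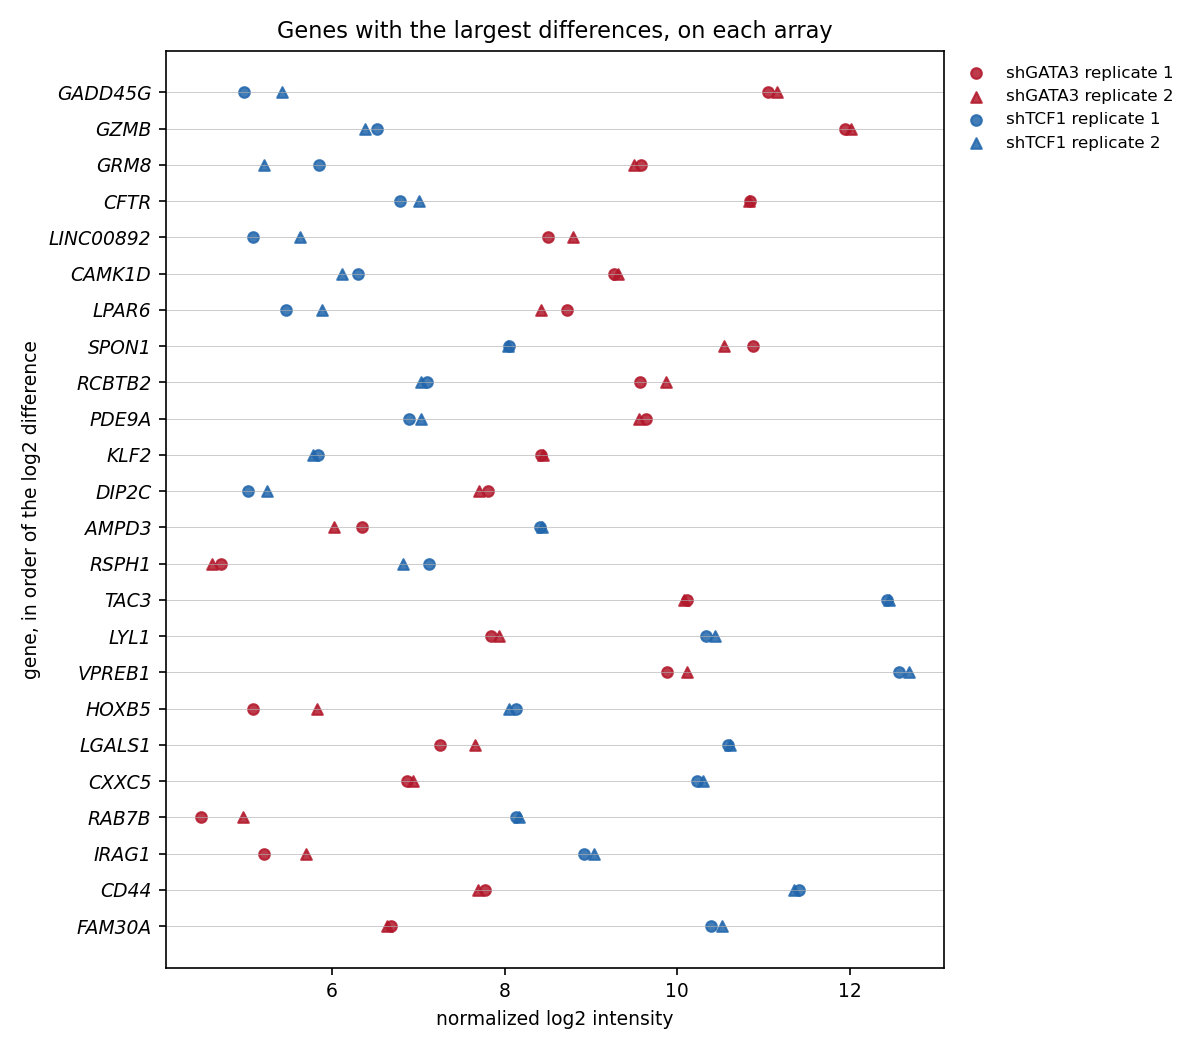
Normalized log2 intensity (x axis) of the 24 genes with the largest called differences, 12 in each direction, ordered by the difference from GADD45G to FAM30A (y axis). Each symbol is 1 array; red, arrays labelled shGATA3, blue, arrays labelled shTCF1, circle, replicate 1, triangle, replicate 2.

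Other genes were measurable under 1 hairpin only. A total of 184 genes were well above background on both shGATA3-labelled arrays and on neither labelled shTCF1, of which 72 were called, and 55 genes showed the opposite, of which 32 were called. For such a gene the fold is given as a lower bound in the main normalization only. On each dim array it is set by the higher of the array's dimmest signal that counts as well above background and the gene's own signal. Where the gene's own signal is the higher on both dim arrays, as for GZMA, the value is the fitted fold and no bound. Nor do the bounds hold under another background correction. With normexp the fitted fold was 2.42 for TNFRSF14 and 2.10 for GRID1, below the bounds given for them. Such a gene passed the filter through the group in which it was high, so that its call is not independent of the filter. This applies to GZMA and to every gene or probe given below as at least a stated fold higher. It also applies to GZMH, S1PR1, CA2 and PLXNB1. Each of these was flagged on both shGATA3-labelled arrays and on 1 labelled shTCF1, so that it passed through the shGATA3-labelled arrays alone. ECRG4, a secreted peptide precursor, was at 8.56 and 8.87 on the shGATA3-labelled arrays and was at least 19.3-fold higher there (adjusted p 0.000765 in limma). ARPP21, a cyclic AMP regulated phosphoprotein, was at 7.75 and 7.77 and at least 9.94-fold higher (adjusted p 0.000138). PRSS57, a serine protease of neutrophil granules, was at 7.5 and 7.72 on the shTCF1-labelled arrays and at least 10.6-fold higher there (adjusted p 0.000621), while with normexp background correction its fitted fold was 3.22. ECRG4 and ARPP21 were chosen after their values were seen, and both stayed called whichever array was omitted.

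Among 48 lists of pathways and families, 46 had at least 5 tested genes. Of these, 24 had a called share at least 2 times the 5.25% over all genes. The lists and their members were chosen with earlier results of these data known, so this count is no independent result. The highest shares were 36.4% for tumour necrosis factor (TNF) ligands and receptors and 33.3% for cytotoxic granule genes, but 3 and 2 of their calls were of genes that were not well above background on all 4 arrays. Among the 13570 genes well above background on all 4 arrays 615 were called (4.53%), with 5 of 18 TNF genes and 3 of 13 granule genes. In 8 lists no gene was called. These were the replication-dependent histones (62 tested genes), histone variants (10), cytosolic ribosomal proteins (86), nuclear subunits of oxidative phosphorylation (82), mitosis and G2/M genes (46), heat shock proteins (19), small RNA processing genes (17) and GATA factors with their cofactors (7). DNA replication genes had 1 call of 56. The medians of the 46 lists lay between -0.41 and 0.19.

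**Figure D4:**
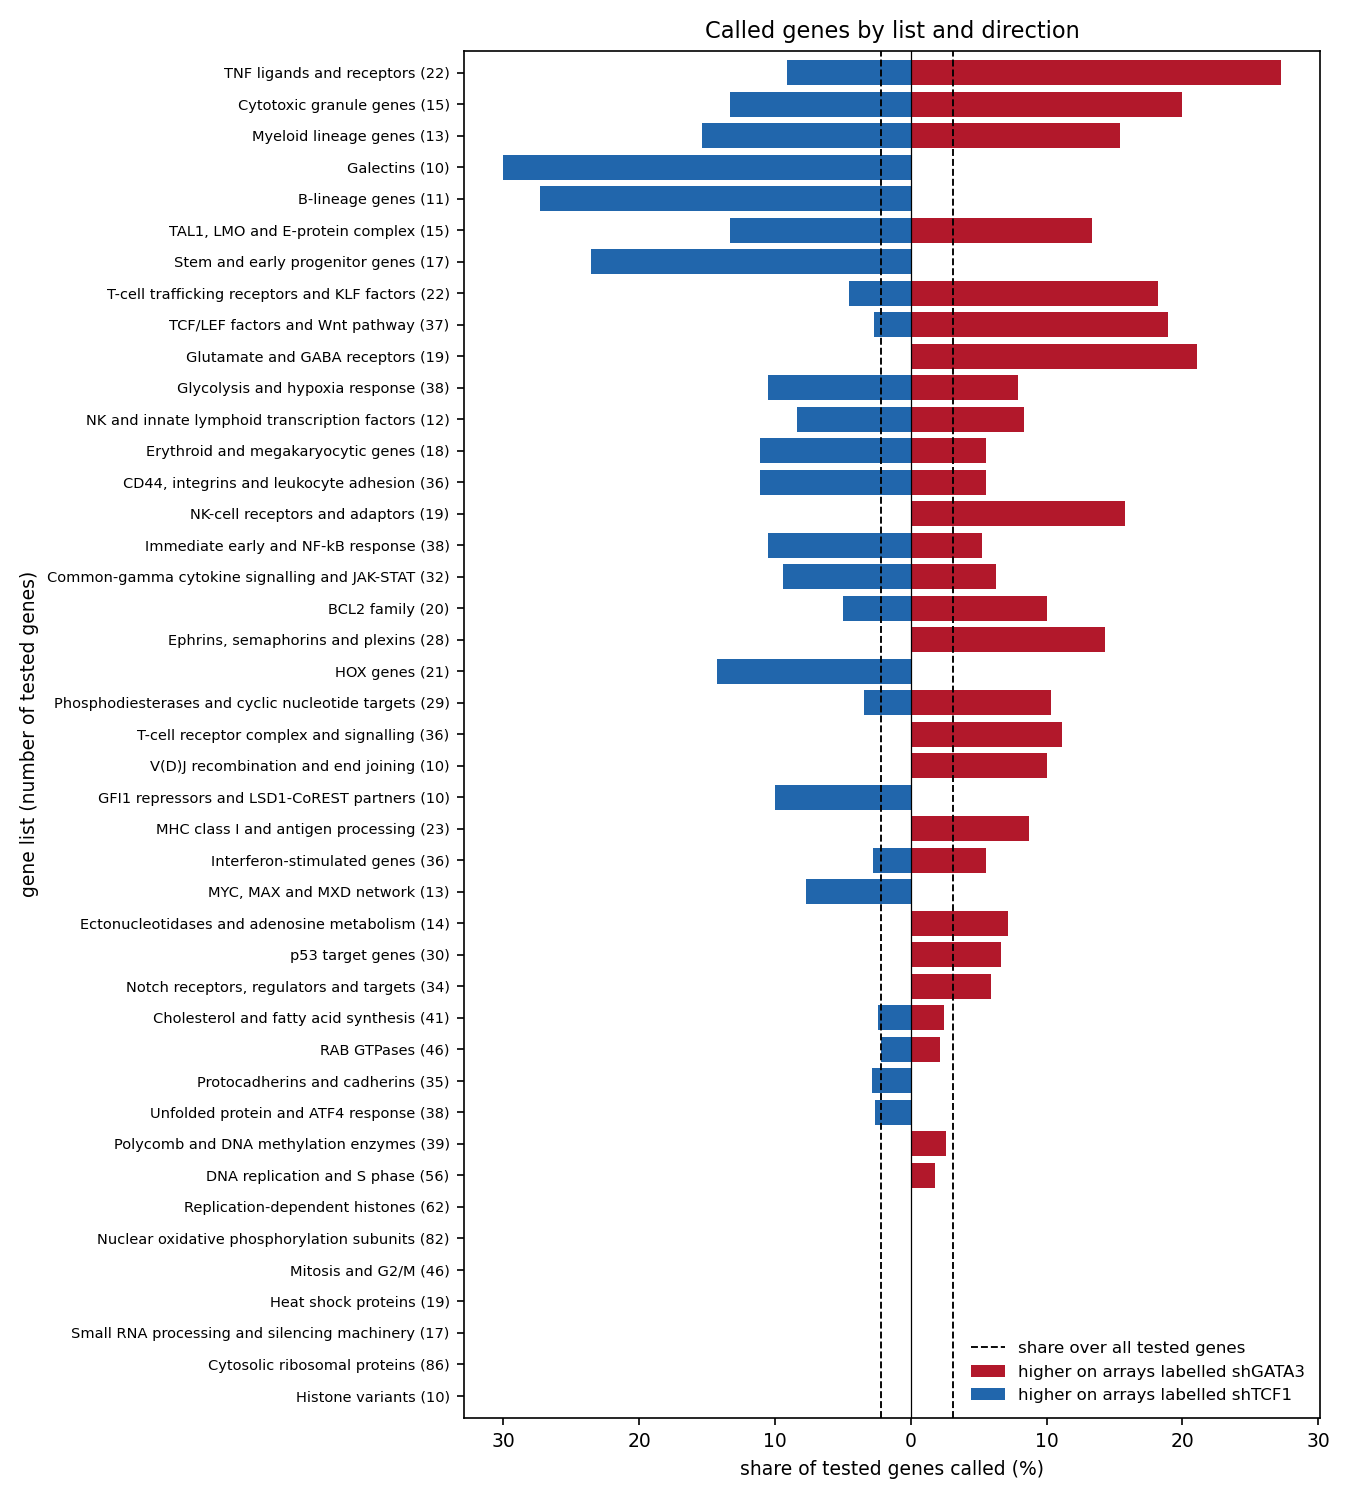
Share of the tested genes of each list that was called (x axis, percent; 0 in the middle), red bars to the right for genes higher on the shGATA3-labelled arrays and blue bars to the left for genes higher on the shTCF1-labelled ones, for lists with at least 10 tested genes (number in brackets). Dashed lines mark the shares over all tested genes, 3.08% and 2.17%, and TNF ligands and receptors stand at the top with 6 and 2 of 22 genes.

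The cytotoxic granule genes, whose products NK and cytotoxic T cells release to kill targets, were split. Of 19 listed genes 15 were tested and 5 called, 3 higher on the shGATA3-labelled arrays and 2 on the shTCF1-labelled ones, with a median difference of -0.11. GZMA, granzyme A, went against GZMB. It was well above background on neither array labelled shGATA3 (4.36 and 4.27) and on both labelled shTCF1 (6.58 and 6.57). The fitted fold was 4.80, higher on the shTCF1-labelled arrays (adjusted p 0.000624 in limma), and 1.92 with normexp. GZMH, granzyme H, was at 6.79 and 7.05 on the shGATA3-labelled arrays and at 4.0 and 5.20 on the shTCF1-labelled ones, of which 1 was well above background. Its difference of 2.32 (SE 0.36, adjusted p 0.0204) was not called without shGATA3 replicate 1 or 2 (adjusted p reaching 0.0779), and it was called under 2 of the 4 other scalings. SRGN, the granule proteoglycan serglycin, was at 8.83 and 8.71 against 7.03 and 7.23 (difference 1.64, adjusted p 0.00235). CTSC, the protease that activates granzymes, differed by -0.71 (adjusted p 0.0439), a call that was lost without any 1 of the 4 arrays, and 2 of its 3 probes were not called. In the fits without 1 array the list had 3 to 4 calls, with 3 without either array labelled shGATA3.

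Of the NK-cell receptors and adaptors 19 of 33 were tested, and the 3 that were called were all higher on the shGATA3-labelled arrays. NCAM1, the CD56 antigen, was at 8.82 and 8.75 against 6.51 and 6.66, which is 4.60-fold (adjusted p 0.000844 in limma). CD300A, an inhibitory receptor, was at 6.98 and 6.95 against 5.29 and 5.57 (difference 1.53, adjusted p 0.00312). The 2 probes of CD300A differed in size, the second being at 9.05 and 8.92 on the shGATA3-labelled arrays and not well above background on the shTCF1-labelled ones, at least 23.3-fold (adjusted p 5.43e-05). HCST, the DAP10 adaptor, differed by 0.75 and was not called without any 1 array (adjusted p up to 0.0920). The list had 2 calls without either array labelled shGATA3. Of the NK and innate lymphoid transcription factors 12 of 17 were tested. RORA, a nuclear receptor needed by innate lymphoid cells, was 0.60 lower on the shGATA3-labelled arrays (adjusted p 0.0428 in limma), a call lost without any 1 array (adjusted p up to 0.134). NFIL3 (0.78, adjusted p 0.0561) and RUNX3 (0.38, adjusted p 0.198) were not called.

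The TCF/LEF and Wnt list held 37 tested genes of 47, of which 8 were called, 7 higher on the shGATA3-labelled arrays. One of the 7 is TCF7, the target of the other hairpin. NKD2, which antagonises Wnt through Dishevelled, was at 11.78 and 11.71 against 9.13 and 9.45, which is 5.50-fold (adjusted p 0.0010 in limma). DKK1, a secreted Wnt antagonist, was at 6.76 and 6.58 against 5.59 and 5.28 (difference 1.24, adjusted p 0.00968). CXXC4, a relative of CXXC5, was at 7.77 and 7.79 against 6.56 and 6.56 (difference 1.22, adjusted p 0.00372), so that the 2 related Dishevelled-binding genes differed in opposite directions. AXIN2, a feedback inhibitor and common beta-catenin target, was at 7.36 and 7.29 against 6.41 and 5.71 (difference 1.26, adjusted p 0.0322), and its other probe differed by 1.79. The call of AXIN2 was lost without shGATA3 replicate 1 or 2 (adjusted p reaching 0.0959).

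TLE1, a Groucho corepressor, and BCL9L, a beta-catenin cofactor, were 0.79 and 0.86 higher (adjusted p 0.0188 and 0.0253 in limma). TLE1 was called in the fit without shTCF1 replicate 2 and BCL9L in that without shTCF1 replicate 1, and in no other fit without 1 array (adjusted p up to 0.0676 and 0.0921). The second probes of TLE1 and BCL9L were not called, and that of TLE1 differed by -0.13. LEF1 (0.33, adjusted p 0.195) and beta-catenin itself, CTNNB1 (0.33, adjusted p 0.185), were not called. The list had 5 calls without shGATA3 replicate 1 and 5 without shGATA3 replicate 2.

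Of the GATA factors and cofactors 7 of 10 were tested and none was called. Besides GATA3 the differences were 0.26 for GATA2, -0.03 for GATA4, -0.01 for GATA6 -0.05 for the cofactor ZFPM1, -0.10 for GATAD2A and -0.08 for GATAD2B (adjusted p 0.380 to 0.983 in limma). Of the Notch genes 34 of 44 were tested and 2 were called (5.88%), close to the share over all genes. NRARP, a Notch target that feeds back on the pathway, was at 8.91 and 8.83 on the shGATA3-labelled arrays and at 7.87 and 7.83 on the shTCF1-labelled ones (difference 1.02, adjusted p 0.00776). The receptor NOTCH3 differed by 0.67, a call lost without any 1 array (adjusted p up to 0.137). The targets DTX1 (0.08) and HES1 (0.01) and the receptor NOTCH1 (-0.43) were not called (adjusted p 0.762, 0.968 and 0.101).

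Genes of the T-cell receptor pathway had 36 of 39 members tested and 4 called, all higher on the shGATA3-labelled arrays. LAT, the membrane adaptor that is phosphorylated by ZAP70, was at 13.75 and 13.74 against 11.47 and 11.63, which is 4.58-fold (adjusted p 0.000817 in limma). CD2, an adhesion receptor of T and NK cells, was at 11.20 and 11.24 against 9.49 and 9.52, which is 3.29-fold (adjusted p 0.00133). RASGRP1, a Ras activator, and UBASH3A, a negative regulator, differed by 0.76 and 0.63. RASGRP1 was called without shTCF1 replicate 2 and in no other fit without 1 array, and UBASH3A in none (adjusted p up to 0.0957 and 0.165 in limma). The receptor chains CD3D (0.79), CD3E (-0.20) and CD3G (-0.01) were not called, with adjusted p of 0.177, 0.422 and 0.968. The list had 2 calls without shGATA3 replicate 2. DNTT, the enzyme that adds bases at V(D)J joints, was the one called gene of 10 tested in that list, at 0.65, and was lost without any 1 array (adjusted p up to 0.156).

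**Figure D5:**
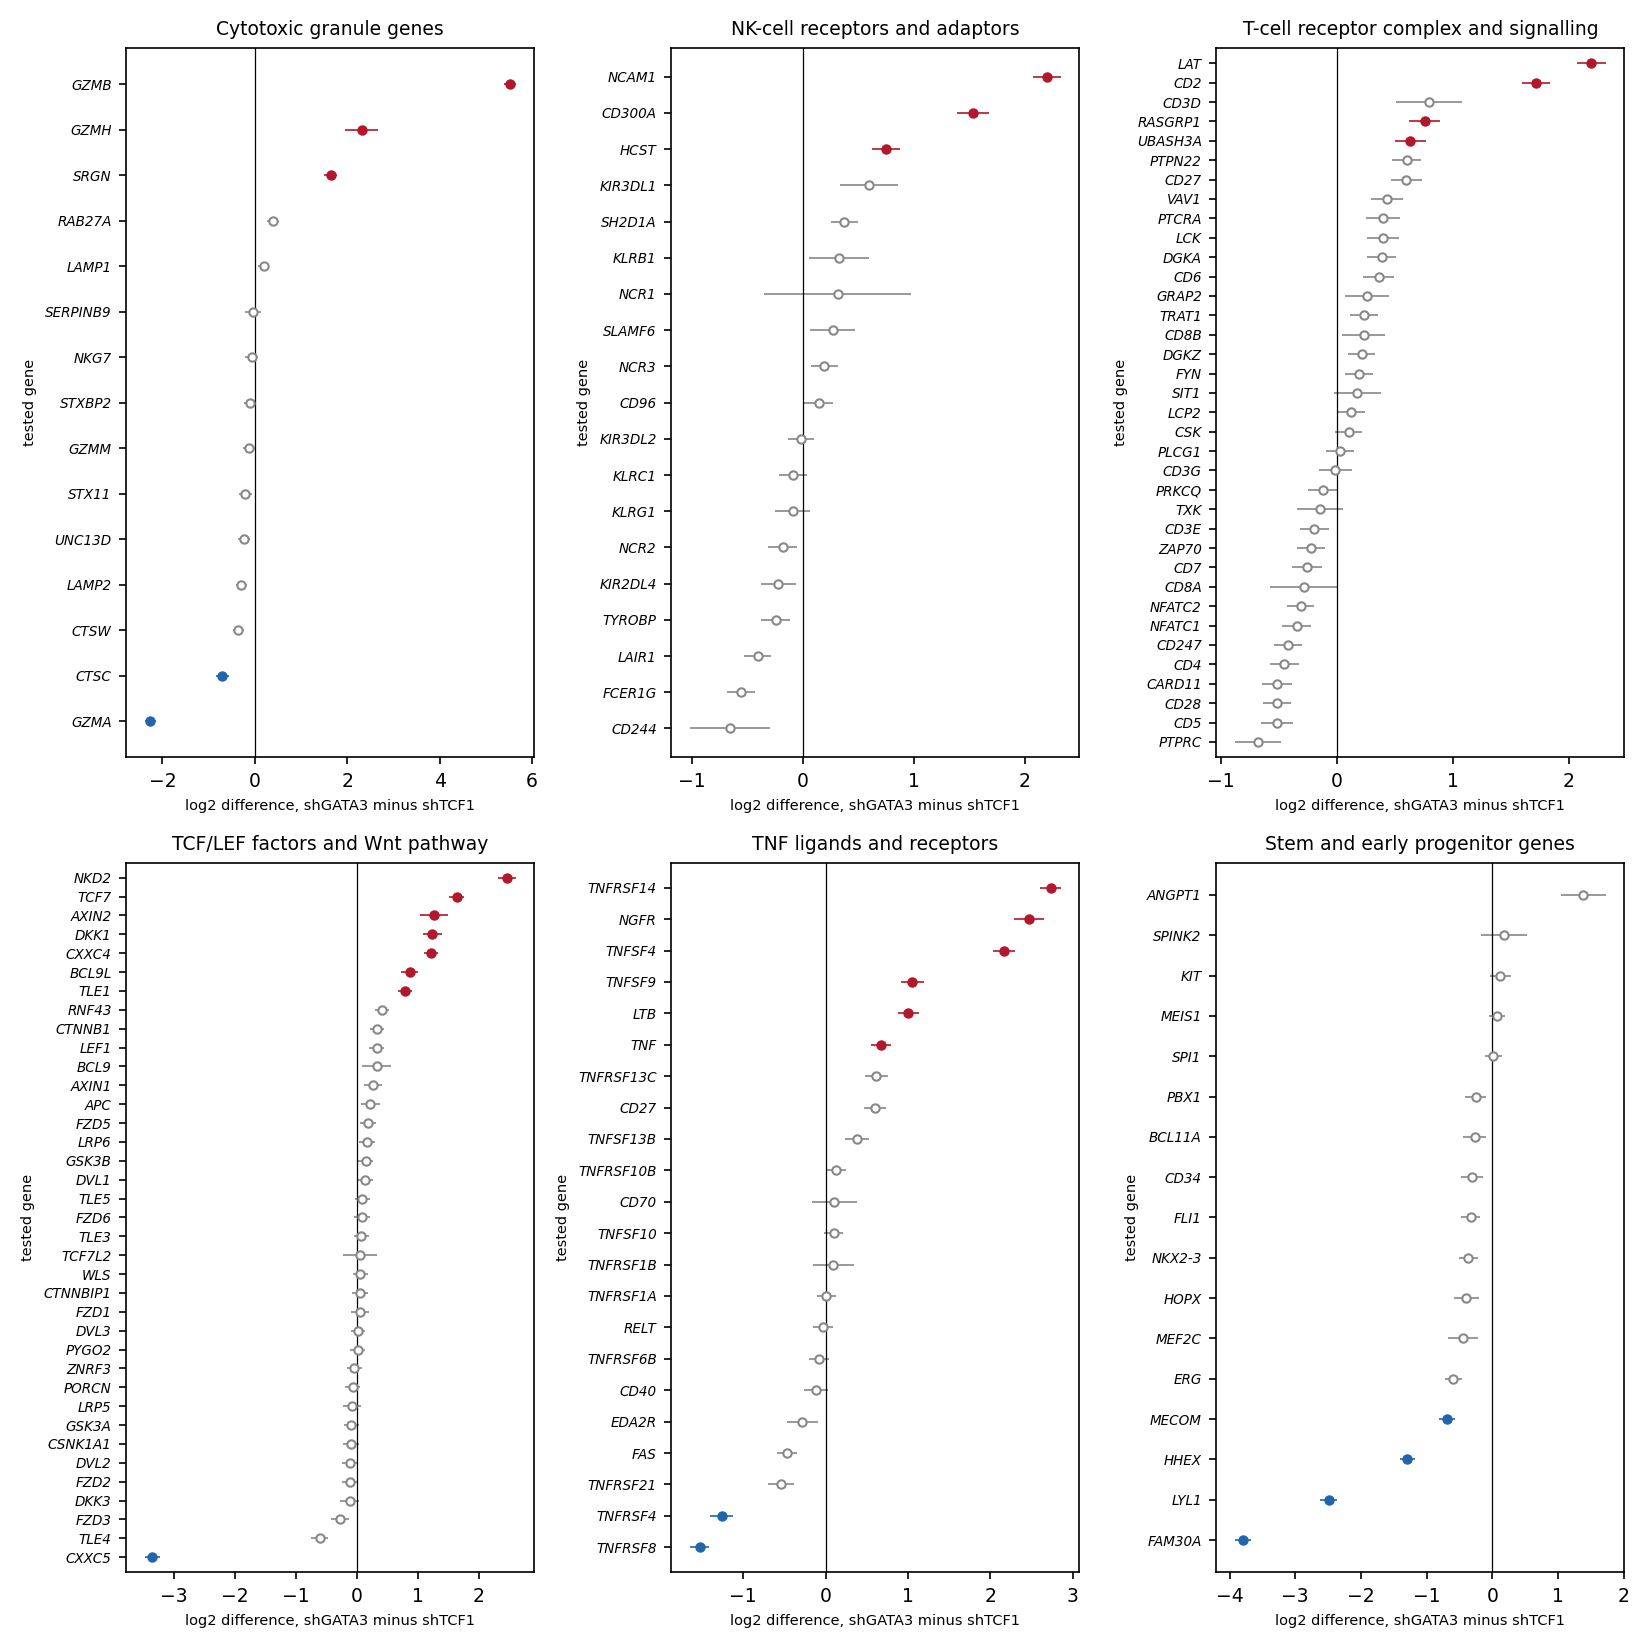
Log2 difference between the hairpins (x axis, shGATA3 minus shTCF1) for every tested gene of 6 lists (y axis, ordered by the difference), with bars for the standard error in limma. Filled points were called and open grey points were not; GZMB at 5.53 and FAM30A at -3.80 mark the extremes.

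Receptors and factors that guide T cells between blood and tissue had 22 of 31 genes tested and 5 called, 4 of them higher on the shGATA3-labelled arrays. Counting only the 20 genes of the list flagged on each of the 4 arrays, 3 were called, which leaves out S1PR1 and CXCR5. Beside KLF2, at 8.42 and 8.45 against 5.84 and 5.78, stood S1PR1, the receptor for egress from lymphoid tissue. S1PR1 was at 7.32 and 7.13 against 5.17 and 4.47, where 1 of the 2 arrays labelled shTCF1 was well above background (difference 2.41, adjusted p 0.00388 in limma). CXCR5 was at least 2.10-fold higher (adjusted p 0.00843). PLXND1 differed by 0.79 and was called without shTCF1 replicate 2 and in no other fit without 1 array (adjusted p up to 0.0660). FOXO1, which is known to activate KLF2 in T cells, went the other way, at 6.97 and 7.02 against 8.0 and 8.14 (difference -1.08, adjusted p 0.00717).

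The list of the TNF superfamily, whose ligands and receptors act in costimulation and cell death, had 22 of 44 members tested. Of these, 8 were called, 6 higher on the shGATA3-labelled arrays and 2 on the shTCF1-labelled ones. The list did not hold CD40LG, a TNF family ligand that was also called higher on the shGATA3-labelled arrays and is described below with its neighbour. The receptor TNFRSF14 (HVEM) was at 7.04 and 7.0 on the shGATA3-labelled arrays and not well above background on the shTCF1-labelled ones, at least 5.96-fold (adjusted p 0.000518 in limma). The ligand TNFSF4 (OX40L) was at 6.54 and 6.72 and at least 4.30-fold higher (adjusted p 0.00109), and the receptor NGFR was at least 3.04-fold higher (adjusted p 0.00173). The ligands TNFSF9 (1.05), LTB (1.0) and TNF (0.67) were also higher, the last of which was not called without any 1 array (adjusted p up to 0.107).

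The other direction held 2 costimulatory receptors. TNFRSF8 (CD30) was at 8.77 and 8.74 on the shGATA3-labelled arrays and at 10.28 and 10.29 on the shTCF1-labelled ones (difference -1.53, adjusted p 0.00188 in limma). TNFRSF4 (OX40), the receptor of TNFSF4, was at 10.15 and 10.36 against 11.44 and 11.59 (difference -1.26, adjusted p 0.00593), so ligand and receptor of this pair differed in opposite directions. The list kept 7 calls in each of the 4 fits without 1 array.

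Of 25 listed genes of stem and early progenitor cells 17 were tested, 13 of which were not called. The 4 called genes were higher on the shTCF1-labelled arrays, and the median difference of the list was -0.33 (-0.36 to -0.30 in the fits without 1 array). Next to FAM30A and LYL1, HHEX, a homeobox factor of early progenitors, was at 8.23 and 8.18 against 9.52 and 9.48 (difference -1.29, adjusted p 0.00309 in limma). MECOM differed by -0.69 and was lost without any 1 array (adjusted p up to 0.101), and 2 of its 3 probes were not called. CD34 (-0.30, adjusted p 0.349) and ERG (-0.60, adjusted p 0.0536) were not called, and ANGPT1 had the highest difference of the list at 1.39 (adjusted p 0.0774). The oncogenic TAL1 and LMO complex had 4 calls of 15 tested genes, LYL1 and the E protein TCF4 (-0.96, adjusted p 0.00888) on the side of shTCF1 and LMO1 (0.68) and ID1 (0.69) on that of shGATA3. LMO1 and ID1 were not called without any 1 array (adjusted p up to 0.110 and 0.0911).

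The HOX list, homeobox genes with their PBX and MEIS partners, had 21 of 46 genes tested. Its 3 called genes were HOXB5, at 5.09 and 5.82 against 8.13 and 8.05, HOXB2 (-1.07, adjusted p 0.00684 in limma) and HOXB3 (-0.99, adjusted p 0.00962), all of the HOXB cluster and all higher on the shTCF1-labelled arrays. HOXB4 differed by -0.47 and was not called (adjusted p 0.0867). The erythroid and megakaryocytic list had 3 calls of 18, NFE2 (-1.04) and AHSP (-0.67) higher on the shTCF1-labelled arrays and CA2 (1.39) on the shGATA3-labelled ones (adjusted p 0.00968, 0.0303 and 0.0106 in limma). AHSP was not called without any 1 array, and CA2 was well above background on 1 array labelled shTCF1. Counting only the 16 genes of the list flagged on each of the 4 arrays, 2 were called. GFI1B, a repressor of erythroid and megakaryocytic cells, was at 5.62 and 6.35 against 7.38 and 7.38 (adjusted p 0.0265), and was called under 2 of the 4 other scalings.

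The B-lineage list had 11 of 22 genes tested and 3 called, all higher on the shTCF1-labelled arrays, with a median of -0.41 (-0.45 to -0.27 without 1 array). VPREB1 and IGLL1 encode the 2 parts of the surrogate light chain of precursor B cells. VPREB1 was at 9.88 and 10.12 against 12.57 and 12.68, and IGLL1 at 9.0 and 9.19 against 10.17 and 10.19 (difference -1.08, adjusted p 0.00790 in limma) with a second probe at -2.95. POU2AF1, a coactivator of octamer factors, differed by -0.63 and was not called without any 1 array (adjusted p up to 0.130). PAX5 and EBF1, which define the lineage, did not reach the filter. The myeloid list had 4 calls of 13, split evenly. PRSS57 and the receptor subunit CSF2RB (-0.61) were higher on the shTCF1-labelled arrays. S100A9, a calcium-binding protein of neutrophils and monocytes, was at 6.63 and 7.07 on the shGATA3-labelled arrays against 4.60 and 4.92 (difference 2.09, adjusted p 0.00305), and the protease inhibitor CST3 differed by 0.76. CSF2RB and CST3 were not called without any 1 array (adjusted p up to 0.167 and 0.0671), and CSF2RB under none of the other scalings.

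Adhesion genes were also split. Of 36 tested members of the CD44 and integrin list (43 listed) 6 were called, 4 higher on the shTCF1-labelled arrays. Beside CD44 these were the laminin receptor chain ITGA6, at 9.52 and 9.44 against 10.66 and 10.696 (difference -1.20, adjusted p 0.00432 in limma), PECAM1 (-0.77) and SPN (-0.83). ITGAL, the LFA-1 chain, was at 7.21 and 7.25 on the shGATA3-labelled arrays and at 5.56 and 5.99 on the shTCF1-labelled ones (difference 1.46, adjusted p 0.00714). ITGB5, a chain of the vitronectin receptor, was at 7.95 and 7.69 against 5.48 and 5.62 (difference 2.27, adjusted p 0.00115). PECAM1 was not called without any 1 array (adjusted p up to 0.0647), and SPN not without shGATA3 replicate 2 or shTCF1 replicate 2 (up to 0.103). The list had 4 calls without shGATA3 replicate 2 or without shTCF1 replicate 2.

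The galectins, lectins that bind beta-galactosides, had 10 of 15 members tested, and the 3 called ones were all higher on the shTCF1-labelled arrays. LGALS1 was at 7.25 and 7.66 against 10.59 and 10.61. LGALS9C was at 11.99 and 11.99 against 13.02 and 13.17 (difference -1.10, adjusted p 0.00658 in limma) and LGALS9 at 7.84 and 7.95 against 8.71 and 8.80 (difference -0.86, adjusted p 0.0157). LGALS9 and LGALS9C are near-identical copies whose transcripts the probes may not tell apart, and LGALS9 was not called without shGATA3 replicate 1 (adjusted p 0.0552).

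Cytokine signalling by the common gamma chain had 32 of 39 genes tested and 5 called. IL9R (-1.21), SOCS3 (-0.92) and STAT5A (-0.85) were higher on the shTCF1-labelled arrays, and IL15 (0.75), the cytokine that NK cells need, and JAK3 (0.57) on the shGATA3-labelled ones (adjusted p 0.00436 to 0.0497 in limma). Only IL9R and SOCS3 were called in each fit without 1 array. IL15 and JAK3 were called in none of them, the second probe of JAK3 differed by -0.01, and STAT5A was called only without shGATA3 replicate 1. The list had 3 calls without shGATA3 replicate 1 and 2 without each of the other arrays.

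Immediate early and NF-kB genes had 6 calls of 38 tested genes. JUN was at 6.91 and 6.90 on the shGATA3-labelled arrays and at 7.94 and 7.97 on the shTCF1-labelled ones (difference -1.06, adjusted p 0.00631 in limma). DUSP1 (-0.66), ATF3 (-0.72) and NFKBIZ (at least 2.01-fold) were also higher on the shTCF1-labelled arrays. BIRC3, an apoptosis inhibitor that NF-kB induces, differed by 1.04 (adjusted p 0.0111) and the kinase MAP3K8 by 0.63. The calls of DUSP1 and MAP3K8 were lost without any 1 array, that of NFKBIZ without shGATA3 replicate 1 or shGATA3 replicate 2, and ATF3 was called only without shTCF1 replicate 1 (adjusted p up to 0.142 over these genes). The 4 probes of ATF3 ran from -0.77 to 0.29. The list had 2 calls with either shGATA3 replicate left out and 3 without shTCF1 replicate 2.

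Of the glycolysis and hypoxia genes 38 of 44 were tested and 7 called, with a list median of -0.26 (-0.30 to -0.14 without 1 array). PFKFB2, which makes the activator of phosphofructokinase, was at 10.99 and 10.57 against 9.07 and 9.14 (difference 1.67, adjusted p 0.00432 in limma), and the angiogenic factor VEGFA was at 8.14 and 8.13 against 7.16 and 7.14 (difference 0.98, adjusted p 0.00803). BNIP3 (-1.79), PDK1 (-1.03), PFKFB3 (-0.73) and HK1 (-0.65) were higher on the shTCF1-labelled arrays and EGLN1 (1.01) on the shGATA3-labelled ones. None of these 5 kept its call in each fit without 1 array (adjusted p up to 0.156), and the list had 2 calls without shGATA3 replicate 2 and 4 without each of the other arrays. BNIP3, PDK1, PFKFB3 and EGLN1 were also not called with all 6 arrays in the fit. The hypoxia targets VEGFA and PDK1 had differences of opposite sign, but PDK1 was called under only 2 of the 4 other scalings.

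In the BCL2 family 3 of 20 tested genes were called, BCL2L15 (-1.04, adjusted p 0.00868 in limma) on the side of shTCF1 and the pro-apoptotic BID (0.76) and BMF (0.63) on that of shGATA3. BMF was called in no fit without 1 array and BID only without shTCF1 replicate 2 (adjusted p up to 0.142), and the list had 1 call without shGATA3 replicate 2 or shTCF1 replicate 1.

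Several lists of signalling and receptor genes that are best known outside lymphocytes had most of their few calls toward the label shGATA3. Of all called genes 58.6% went that way. The 3 called HOX genes and the 1 called of 35 tested protocadherin and cadherin genes went the other way. All 4 called of 19 tested glutamate and GABA receptors were higher on the shGATA3-labelled arrays. GRID1 was at least 4.37-fold higher (adjusted p 0.00118 in limma), GABRD was at 6.60 and 6.48 against 4.99 and 4.90 (difference 1.59, adjusted p 0.00190), and GABRB2 differed by 0.96 and was not called without shGATA3 replicate 2 (adjusted p 0.0625). Of the 47 listed receptors 28 were not tested.

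The 4 called of 28 tested ephrin, semaphorin and plexin genes were also higher there, with EFNB2, an ephrin ligand, at 7.84 and 7.50 against 5.61 and 5.60 (difference 2.06, adjusted p 0.00168 in limma) and PLXNA1 at 0.96 (adjusted p 0.0104). PLXNB1 (0.68) and PLXND1 made up the rest, and PLXNB1 was called in no fit without 1 array. PLXNB1 was well above background on 1 array labelled shTCF1. Counting only the 24 genes of the list flagged on each of the 4 arrays, 3 were called. The list had 2 calls in the fits without shGATA3 replicate 1, without shGATA3 replicate 2 or without shTCF1 replicate 1.

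Phosphodiesterases and cyclic nucleotide targets had 4 calls of 29 tested genes. IRAG1, a substrate of cyclic GMP-dependent kinase, and PDE9A, which degrades cyclic GMP, were among the largest differences of the whole comparison, and they lay on opposite sides. PDE3B (0.99) was not called without either array labelled shGATA3 and IRAG2 (0.69) without any 1 array (adjusted p up to 0.0566 and 0.0984 in limma). SOX3 was the one called gene of 6 tested SOX factors, at least 2.05-fold higher on the shGATA3-labelled arrays in the main normalization (adjusted p 0.0103 in limma). SOX3 passed the filter through the shGATA3-labelled arrays alone, and of the 5 SOX factors well above background on all 4 arrays 0 were called. With normexp its fitted fold was 1.39, and it was not called with all 6 arrays in the fit or with the deposited matrix.

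Lists nearer the share of 5.25% had 1 to 3 calls each. CD1B and CD1A, lipid-presenting molecules of cortical thymocytes, were at least 2.14-fold and 1.20-fold higher on the shGATA3-labelled arrays (adjusted p 0.000621 and 0.0303 in limma), the only calls among 23 tested genes of antigen presentation. Both passed the filter through the shGATA3-labelled arrays alone. CD1A was not called without shGATA3 replicate 1 or shTCF1 replicate 2 (adjusted p up to 0.0692). Interferon-stimulated genes had 3 calls of 36, with HERC6 (0.89) and IFI44 (0.83) higher and MX2 (-0.62) lower on the shGATA3-labelled arrays, with 0 calls without shGATA3 replicate 2 and 1 without shGATA3 replicate 1 or shTCF1 replicate 1. PLK2, a p53-inducible kinase, was at 8.33 and 8.20 against 6.55 and 6.51 (difference 1.73, adjusted p 0.00151), and its relative PLK3 differed by 0.64 and was called in no fit without 1 array. MYCN (-1.0) was the one call of 13 in the MYC network, lost without shGATA3 replicate 2 or shTCF1 replicate 2 (adjusted p up to 0.0896). Of 14 tested genes of adenosine metabolism ENTPD2, an ectonucleotidase, was called at 8.02 and 7.99 against 5.87 and 6.13, a 4.0-fold difference (adjusted p 0.00136).

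Lists that the study compiled were counted in the same way by membership alone. The shares below stand beside 5.25% called over all tested genes, 3.08% higher and 2.17% lower on the shGATA3-labelled arrays. Of 307 tested CD56bright NK-cell genes 34 were called (11.1%), 19 higher and 15 lower on the shGATA3-labelled arrays, and of 281 tested CD56dim genes 29 (10.3%), 17 higher and 12 lower. Both medians were near the 0.0050 of all genes, at 0.0060 and 0.016. Among 191 genes that fall at T-lineage commitment and that Notch raises, 35 were called (18.3%), 14 higher and 21 lower on the shGATA3-labelled arrays with a median of -0.083, and of 102 other genes that fall at commitment 22 (21.6%), 5 higher and 17 lower with a median of -0.16. Genes that GATA3 raised in thymocytes had 46 calls among 174 (26.4%), 22 higher and 24 lower, and genes that it lowered had 41 among 237 (17.3%), 28 higher and 13 lower, with medians of -0.012 and -0.0030. The counts of these 6 lists were 19, 15, 20, 15, 26 and 25 without shGATA3 replicate 2, in the order in which CD56bright, CD56dim, Notch-raised, other, GATA3-raised and GATA3-lowered genes are named here. In the same order, among genes well above background on all 4 arrays, the called shares were 9.86%, 8.71%, 17.0%, 21.6%, 25.6% and 14.2%. The share of all such genes was 4.53%. The Notch-raised list had 22 to 23 calls without each of the other arrays, and the GATA3-raised list 28 without shGATA3 replicate 1.

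The place of the called genes in the genome was examined next. Taking the tested genes in their GRCh38.p14 order, both genes were called in 81 of 14216 neighbouring pairs, 69 in the same direction, 41 of them toward shGATA3 and 28 toward shTCF1. Of the neighbours of called genes 10.9% were called, against 5.25% of all genes. This difference in share was not tested. The pairs with the largest differences, picked after their values were seen, were LPAR6 with RCBTB2, CFTR with CTTNBP2 and GZMH with GZMB.

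The run CTSG, GZMH and GZMB on chromosome 14 was higher as a whole on the shGATA3-labelled arrays. CTSG, the neutrophil protease cathepsin G, was at 14.38 and 14.65 against 12.76 and 12.83, which is 3.30-fold (adjusted p 0.00235 in limma). GZMB and GZMH are similar in sequence, and the probe sequences were not used here to tell how far they cross-react. CTTNBP2 was at 7.55 and 7.81 against 4.93 and 5.28 (difference 2.57, adjusted p 0.00118), on the same side as CFTR. CD40LG, the TNF family ligand of CD40, lies beside LINC00892 and was at 12.97 and 12.92 against 10.60 and 10.90, which is 4.58-fold (adjusted p 0.00118). LINC00892 itself was at 8.51 and 8.79 against 5.08 and 5.63. CTSG and CD40LG stayed called whichever array was omitted and with all 4 alternative scalings.

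Of the custom probes for long noncoding RNAs 420 of 7356 were called (5.71%), 239 of them higher on the shGATA3-labelled arrays. The 3 largest differences toward shGATA3 were those of TCONS_00016941 (9.89-fold, adjusted p 0.00109 in limma), TCONS_00017466 (9.05-fold, 0.000469) and TCONS_00017015 (8.40-fold, 0.00173). TCONS_00016941 was at 7.96 and 8.34 on the shGATA3-labelled arrays and at 4.61 and 5.08 on the shTCF1-labelled ones. Toward shTCF1 they were ENST00000447975 (4.61-fold, 0.00205), TCONS_00001833 (4.44-fold, 0.00256) and TCONS_00006341 (4.19-fold, 0.00123), and ENST00000447975 was at 6.05 and 6.13 against 8.07 and 8.52. All 6 stayed called whichever array was omitted and with all 4 alternative scalings. The count of called long noncoding probes was 254 without shGATA3 replicate 1 and 229 without shGATA3 replicate 2.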

How the data were processed

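RNA of 6 RPMI-8402 samples had been hybridised to 1-colour Agilent arrays, and the 4 hairpin arrays were used. The deposited intensity values came, per the file headers, from Agilent Feature Extraction 10.7.1.1 (9.1 in the submitters' processing notes), background-subtracted and not scaled between arrays. A deposited matrix holds log2 values that the authors normalized by VSN, as their methods state. It served only as an alternative, since the scanner data of the array named in a header did not match some of its columns. Control and outlier spots were left out and spots of a probe averaged. VSN (variance stabilizing normalization, written anew, trimming quantile 0.9, 7 iterations, 5 strata) was run on the 4 arrays in R 4.3.3. Group was the only term of the two-sided limma 3.58.1 fit (lmFit, then eBayes), adjusted by Benjamini-Hochberg over 30237 probes, 2 residual and 4.37 prior degrees of freedom. Of 57176 probes, 25729 were named through RefSeq accessions of GRCh38.p14.

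In simulated data of this comparison 200 of 30237 probes were changed, and the noise was drawn from the variance prior that limma had fitted. The test recovered 45.0% of changes of 1 and 95.0% of changes of 2 on the log2 scale, and 5.41% of its calls were false. The recovered share depends on how many probes change, and 1559 were called in the data, so these shares may not carry over. The number of arrays limits the precision. The scanner flagged 51.1% to 54.5% of probes per array as well above background and 0 as saturated.

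Genes were named if they were targets or markers of the comparison, among the 12 largest called differences each way (well above background on all 4 arrays, groups apart), or called members of a list described. A list was described if at least 5 genes were tested and its called share was at least 2 times that of all genes, or if it bore on the study's question. The members and lists were chosen with earlier results of these data known. Alternatives were other scalings, filters, fits and each array left out. No column of per-sample values lacked a sample of the series. Some members of the lists are not reported here.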

Additional observations from a re-analysis of the deposited data

How the results depend on the processing

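The counts of called probes, genes and long noncoding RNA probes (1559, 747 and 420) moved with the processing. Directions were compared for GATA3 and 129 called genes, and none changed under any alternative run. Those 129 were picked as called in these same data, so that steady directions were likely in advance. The other uncalled genes named above were not compared, nor were CTSG, CD40LG, ECRG4 and ARPP21. Quantile normalization gave 963, 482 and 246, and the deposited matrix 690, 370 and 154. Normexp background correction gave 2637 probes and 1461 genes, and an intensity trend in limma 2802 probes and 1442 genes. Without a filter on dim probes the counts were 30, 19 and 4, and TCF7, at the same difference of 1.64, was no longer called (adjusted p 0.0571 in limma). Folds shrank by more than 1.5 times with normexp for 15 of the 24 genes named by size and 25 of the 106 other genes named, among them GZMA to 1.92-fold, TNFRSF14 to 2.42-fold, S1PR1 to 2.44-fold and NCAM1 to 2.99-fold. Leaving out 1 array gave 814 to 1359 probes, 389 to 576 genes and 229 to 411 long noncoding probes, with the lowest without shGATA3 replicate 2 and, for probes and long noncoding probes, more than 1.5-fold fewer also without shGATA3 replicate 1 (999 and 254). The other settings run (75th percentile scaling, VSN on 6 arrays, all 6 arrays in the fit, probes well above background on all 4 arrays, outlier spots kept) stayed within 1.5 times of each count. The replicate block gave 1078 probes, 503 genes and 307 long noncoding probes, but same-numbered arrays deviated together only weakly (correlation 0.049 over 2 pairs) and the labels name no shared batch. Of the 129 called genes named, 77 were called in each fit without 1 array, 89 under each of 4 other scalings, 95 with the replicate block and 77 with the deposited matrix. A block for slide, scan or place in the row could not be fitted, because all arrays shared the slide and scan and each group had its own columns. With 2 arrays a group, and smaller changes less often recovered in simulation, a gene that was not called may still differ.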
